A study of Ictalurus punctatus with 24 samples.

Results

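Gene expression was compared between the intestine of channel catfish (Ictalurus punctatus) given a high-frass diet and the intestine of catfish given a low-frass diet. The high-frass feed held 300 g of frass per kg and the low-frass feed 50 g per kg, and each diet had 4 RNA-seq libraries, so the comparison rests on 8 of the 24 libraries of the series. The libraries were chosen by their diet and tissue labels alone, and no measured value was used. A further 4 intestine libraries, from fish whose feed held 0 g of frass per kg, entered the same fits and are given after the frass diets as background. All fish were Marion strain fingerlings fed for 10 weeks. The frass, the residue left by black soldier fly larvae, replaced plant ingredients (soybean meal, corn meal and wheat shorts) at equal dietary protein. Added corn oil was also lower in the high-frass feed than in the low-frass feed. Each library came from RNA of fish of 1 aquarium that were pooled, with 3 fish per pool according to the labels, so animals cannot be told apart within a library and every p-value measures the spread between pools. In this text a replicate is such a pool, and the levels are CPM, read counts scaled to a common library size and corrected for library composition.

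The question put to these libraries was which transcripts differed with the amount of frass between the 2 frass diets, apart from the stretch of gut that each pool held. The fish intestine is divided along its length. Enterocytes of the anterior stretch absorb lipid, sugar, peptides and vitamins and carry brush border transporters, apolipoproteins and retinol-binding proteins. Enterocytes of the posterior stretch take up whole proteins by endocytosis, digest them in lysosomes and recover bile acids, and the posterior gut of fish is also rich in immune cells. A pool that holds more of either stretch therefore has higher levels of a large set of transcripts whatever the diet, and in bulk tissue fewer cells of a type and less RNA per cell cannot be told apart.

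The 8 libraries held 13347895 to 17371695 counts with a median of 16425232.5, and between 15463 and 16759 features had a count. The most abundant 10 features held 9.94% to 15.0% of the counts, and no 2 libraries held identical counts. Intestinal genes were present in all 8 pools, with chs1, the gut chitin synthase, at 994 to 2500 CPM in high-frass pools and at 1330 to 1710 CPM in low-frass pools. After the low-count filter 10401 features from 10220 genes were tested. The reads had been counted per transcript without regard to strand, so reads of overlapping or antisense genes cannot be told apart and the counts of genes with several transcripts can be too low. The median feature tested had a mean of 1.94 CPM over the 12 intestine libraries where its gene had 2 or more annotated transcripts (1656 features) and of 18.9 CPM where it had 1 (8674 features). Of the 94 named genes tested, 7 had 2 or more transcripts.

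The intestine pools fell into 2 clusters that did not follow diet. In high frass, replicates 1, 2 and 3 were posterior-like and replicate 4 was anterior-like, whereas in low frass replicate 3 was posterior-like and replicates 1, 2 and 4 were anterior-like. The control had 2 pools of each kind. The median Pearson r of log2 CPM, taken across features that are not independent replicates, was 0.971 between pools of the same stretch and 0.892 between stretches. The first principal component held 61.2% of the variance and the next 8.92%. The mean log2 level of an anterior enterocyte list minus that of a posterior list ran from 4.71 to 6.02 in the anterior-like pools and from -0.84 to 0.55 in the posterior-like pools, and these values describe the clusters and test nothing. Stretch and diet were therefore partly confounded, with 3 posterior-like pools in high frass against 1 in low frass.

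**Figure D1:**
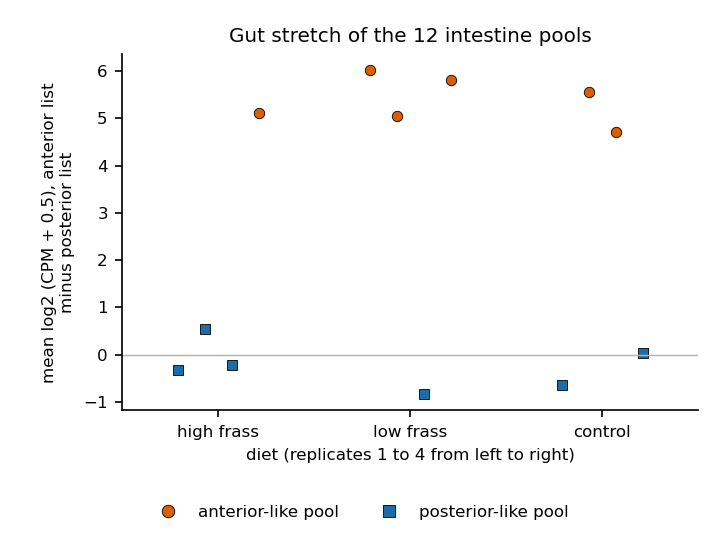
Each point is 1 intestine pool, with its diet on the x axis (replicates 1 to 4 from left to right) and, on the y axis, the mean log2 (CPM + 0.5) of the anterior enterocyte list minus that of the posterior list. The anterior-like pools (circles) lie between 4.71 and 6.02 and the posterior-like pools (squares) between -0.84 and 0.55, with 1 circle in high frass, 3 in low frass and 2 in the control.

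The size of this split is seen in single transporters. The cellular retinol-binding protein gene rbp2a had 87.7, 44.8, 24.4 and 7510 CPM in high-frass replicates 1 to 4, and 10300, 9200, 23.2 and 9760 CPM in low-frass replicates 1 to 4. The peptide transporter gene slc15a1b had 152, 51.6, 46.0 and 17900 CPM in high frass and 42100, 4230, 28.9 and 7460 CPM in low frass. Cubilin (cubn), an endocytic receptor for proteins and vitamin B12 complexes, ran the other way, with 2030, 851, 2730 and 13.1 CPM in high frass and 13.2, 15.3, 1720 and 9.26 CPM in low frass. The pools therefore overlapped completely between diets in each of these genes, and high-frass replicate 4 and low-frass replicate 3 each sat with the pools of the other diet. The bile acid binding protein gene fabp6 did not follow the stretch, at 1010, 1650, 146 and 3590 CPM in high frass and 35.5, 1850, 2950 and 27.8 CPM in low frass. The posterior list, used in the score above, was mixed. Its median log2 difference of anterior-like minus posterior-like pools was -0.57, against 4.84 for the anterior list. Members ran from -7.06 for cubn to 7.52 for enpp7.2, and tmprss15, at 2.74, was also higher in the anterior-like pools. Between the clusters, 511 features differed more than 4-fold, of which 297 were higher in the anterior-like pools.

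High frass was compared with low frass in 2 ways over the same 12 intestine libraries and the same features. The fit with diet alone takes each pool as it is, and the fit with gut stretch adds the 2 clusters as a term, so that high frass is set against low frass within each stretch. With edgeR's quasi-likelihood test and Benjamini-Hochberg adjustment, 0 of 10401 features (0%) passed an adjusted p under 0.05 with more than a 2-fold change in the fit with diet alone, and likewise 0 (0%) in the fit with gut stretch. The smallest adjusted p was 0.567 with diet alone and 0.622 with gut stretch, and no gene named below had a smaller one in that fit. DESeq2 on the same counts called 13 features with diet alone and 7 with gut stretch. At an unadjusted p under 0.05, 531 features (5.11%) were higher and 360 (3.46%) lower in high frass with diet alone, and 398 (3.83%) were higher and 411 (3.95%) lower with gut stretch. Of the 891 and 809 features these make in each fit, 407 were in both, with the same direction in all 407. The median log2 fold change of all features was -0.03 with diet alone and -0.004 with gut stretch. In what follows a gene is called higher or lower by its values, and no single gene passed the adjusted threshold in edgeR.

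A count of pools that do not overlap needs no model. In 200 features (1.92%) every high-frass pool was above every low-frass pool, and in 152 (1.46%) every high-frass pool was below every low-frass pool. If level were unrelated to diet, all 70 divisions of 8 pools into 4 and 4 would be equally likely. Full separation in either direction would then have a probability of 0.0286, which covers both shares together. A lack of overlap alone therefore does not mark a difference between the diets. Of the 200 higher features, 40 also had every high-frass pool above every control pool, and 11 had every low-frass pool below every control pool. Of the 152 lower features, 10 had every high-frass pool below every control pool and 5 had every low-frass pool above every control pool. The genes described next were taken from 3 sources. These were the genes with the smallest p in either fit, 25 gene lists, and genes that the study named for the intestine or measured by RT-qPCR. The study's genes were looked up by symbol, and not all are covered. Complement C3, MHC class I, the immunoglobulin V-region gene, il1b, interferon gamma, IgM, MHC class II and tlr3 are among those not described. Counts of list members at an unadjusted p under 0.05 are to be set against the shares of all features. These shares were 5.11% higher and 3.46% lower with diet alone, and 3.83% higher and 3.95% lower with gut stretch.

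Of the genes lower in high frass, the smallest p with diet alone was that of mamdc4, on chromosome 18 (Coco_2.0, 3822284 to 3839115), which in mammals encodes an apical membrane protein of the endocytic compartment of suckling enterocytes. It had 538, 422, 477 and 779 CPM in high-frass replicates 1 to 4, against 1220, 1430, 1030 and 1120 CPM in low-frass replicates 1 to 4 and 1420, 1250, 1060 and 1450 CPM in the control pools. All 4 high-frass pools lay below all 8 other pools, in both stretches. The log2 fold change of high over low frass was -1.12 with diet alone (SE 0.26, unadjusted p = 0.00105) and -1.04 with gut stretch (SE 0.23, unadjusted p = 7.31e-04), and DESeq2 called it in both fits with adjusted p = 0.00219 and 0.0136. Within the anterior-like pools, high-frass replicate 4 was lower than the mean of the 3 low-frass pools by a log2 difference of -0.68, and within the posterior-like pools the mean of high-frass replicates 1 to 3 was lower than low-frass replicate 3 by -1.12. The endocytosis partners cubn and amn differed between stretches and not in this way, with amn at 443, 241, 598 and 4.13 CPM in high frass and 2.22, 3.17, 420 and 2.51 CPM in low frass.

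The next smallest p with diet alone among lower genes were those of rspo2, which encodes an amplifier of Wnt signalling, and il17rd, which encodes an inhibitor of FGF signalling. Both were near the limit of the counts and have 2 annotated transcripts. The gene rspo2 had 0.446, 0.463, 0.613 and 0.578 CPM in high frass, against 1.03, 1.45, 1.01 and 1.25 CPM in low frass and 1.19 to 1.43 CPM in the control, a log2 fold change of -1.16 (SE 0.28, unadjusted p = 0.00135). The gene il17rd had 0.255, 0.174, 0.153 and 0.330 CPM in high frass, against 0.739, 1.1, 0.812 and 0.975 CPM in low frass and 0.141 to 0.856 CPM in the control, a log2 fold change of -1.99 (unadjusted p = 0.00176). High and low frass did not overlap in either gene, and the control lay above high frass in rspo2 but overlapped it in il17rd.

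Among the lower genes with the smallest p with gut stretch, the splicing factor gene snrpa, of the U1 particle, had 42.3, 47.2, 45.5 and 29.3 CPM in high frass and 44.8, 43.9, 83.6 and 37.0 CPM in low frass, with overlap. Its log2 fold change with gut stretch was -0.63 (unadjusted p = 0.00142), and it was -0.42 without low-frass replicate 3, its highest pool. LOC108260099 had 16.5, 15.9, 16.9 and 8.75 CPM in high frass and 16.4, 14.2, 40.6 and 18.2 CPM in low frass. LOC108261697, chosen instead by its p in the edgeR fit with diet alone (unadjusted p = 0.0022), had 2.23, 1.33, 0.562 and 2.31 CPM in high frass and 11.1, 3.92, 5.78 and 9.61 CPM in low frass. The gene dhtkd1, on chromosome 14 (21824086 to 21843488), encodes a mitochondrial enzyme of lysine breakdown and had 35.2, 23.0, 23.1 and 55.6 CPM in high frass, against 172, 72.8, 61.5 and 113 CPM in low frass. The high-frass pools did not overlap the low-frass pools, but control replicates 1 and 4 had 32.6 and 50.1 CPM, inside the high-frass range. Its log2 fold change was -1.61 with diet alone and -1.12 with gut stretch (SE 0.28, unadjusted p = 0.00153). The aromatic amino acid transporter gene slc16a10 had 43.4, 67.9, 66.0 and 183 CPM in high frass and 342, 296, 111 and 373 CPM in low frass. Its pools overlapped between diets, and its log2 fold change with gut stretch was -0.89 (SE 0.21, unadjusted p = 9.67e-04), with differences of -0.88 in the anterior-like and -0.93 in the posterior-like pools. The anterior-like level of dhtkd1 and slc16a10 stood above the posterior-like level within each diet.

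The genes mttp and pck2 were also lower within each stretch. The microsomal transfer protein gene mttp, which loads lipid onto apolipoprotein B, had 158, 190, 140 and 475 CPM in high frass and 1170, 652, 329 and 1030 CPM in low frass, and its log2 fold change with gut stretch was -0.84 (SE 0.29, unadjusted p = 0.0122). The apolipoprotein B gene apoba did not follow it, with 427, 679, 962 and 812 CPM in high frass and 2250, 1450, 357 and 1760 CPM in low frass, so high frass was the lower diet among the anterior-like pools and the higher one among the posterior-like pools. The apolipoprotein A1 gene apoa1a had 12.5, 7.18, 7.3 and 375 CPM in high frass and 2910, 750, 4.26 and 629 CPM in low frass, with the same pattern. The study had named apolipoprotein A1, but its main text gives no locus. The feature zgc:162608, also entered among the study's genes, had few counts. It had 0.191, 2.09, 0.051 and 1.73 CPM in high frass and 1.33, 1.17, 1.07 and 0.418 CPM in low frass. In the control it had 0.271, 0.447, 0.198 and 0.0707 CPM. The mitochondrial phosphoenolpyruvate carboxykinase gene pck2 had 444, 562, 372 and 1210 CPM in high frass and 3030, 1550, 819 and 1660 CPM in low frass, with a log2 fold change of -0.82 (unadjusted p = 0.0166). The sodium-coupled glucose transporter gene slc5a1 differed from mttp and pck2, with 1460, 1290, 2720 and 3940 CPM in high frass and 4550, 3450, 726 and 3690 CPM in low frass. Its log2 fold change of 0.92 with gut stretch went with a difference of 0.02 among the anterior-like pools and of 1.25 among the posterior-like pools, and was 0.60 without high-frass replicate 3 and 1.4 without high-frass replicate 4. Over the anterior enterocyte list as a whole, all 21 members had a log2 fold change below 0 with diet alone, with a median of -1.59, and with gut stretch 13 were above 0 and 8 below with a median of 0.05. Without high-frass replicate 4 the median with diet alone was -4.24.

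The gene angptl4, on chromosome 20 (24973370 to 24977852), encodes a secreted inhibitor of lipoprotein lipase that is switched on by fatty acids, fasting and low oxygen. It had 59.0, 49.5, 76.5 and 40.6 CPM in high frass, against 18.0, 24.4, 27.4 and 16.0 CPM in low frass and 18.5, 20.8, 19.2 and 43.0 CPM in the control. Every high-frass pool was above every low-frass pool, and control replicate 4 lay inside the high-frass range. The log2 fold change was 1.39 with diet alone (SE 0.31, unadjusted p = 8.33e-04) and 1.1 with gut stretch (SE 0.27, unadjusted p = 0.00131), with differences of 1.06 in the anterior-like and 1.13 in the posterior-like pools. DESeq2 called it with diet alone (adjusted p = 0.0433).

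The fatty acid oxidation list, which holds angptl4, had more members below 0 than above. Of its 22 members tested, 18 had a log2 fold change below 0 in each fit, 3 were lower and 1 higher at an unadjusted p under 0.05 with diet alone, and 2 were lower and 1 higher with gut stretch. Among all features 3.46% were lower with diet alone and 3.95% with gut stretch. The list median was -0.25 with diet alone and -0.26 with gut stretch, and the summed level was 2265 to 2804 CPM in high frass, 2917 to 3632 CPM in low frass and 1856 to 3399 CPM in the control. The sums did not overlap between the frass diets, while the control range reached into both. The fatty acid binding protein gene fabp3 had 52.0, 31.2, 27.0 and 55.9 CPM in high frass and 83.0, 52.2, 98.2 and 84.8 CPM in low frass, a log2 fold change of -0.78 with gut stretch (unadjusted p = 0.0277). The trifunctional protein subunit gene hadhab had 188, 208, 167 and 170 CPM in high frass and 220, 197, 349 and 281 CPM in low frass, a log2 fold change of -0.57 (unadjusted p = 0.0197). Low-frass replicate 3 was the highest pool for both genes. Without it their log2 fold changes were -0.18 for fabp3 and -0.27 for hadhab, and 0 members were lower at an unadjusted p under 0.05 with gut stretch.

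**Figure D2:**
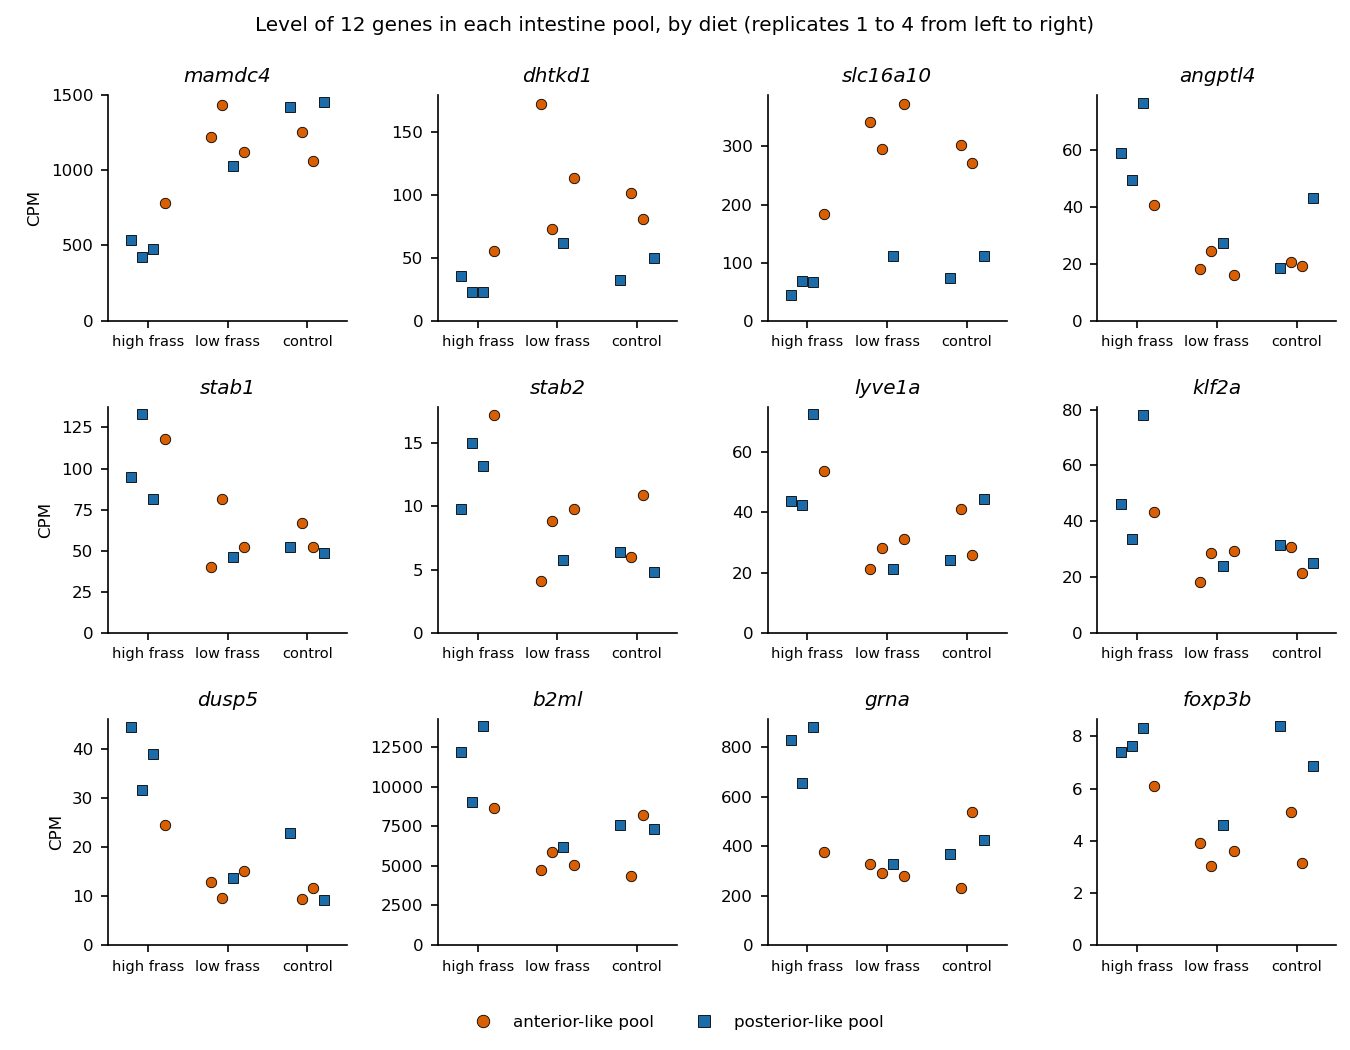
CPM of 12 genes (y axes, linear from 0) in each intestine pool, with diets on the x axes and replicates 1 to 4 from left to right; circles are anterior-like pools and squares posterior-like pools. The 4 high-frass pools lie below all low-frass pools in mamdc4 and dhtkd1, above all of them in angptl4, stab1, stab2, lyve1a, klf2a, dusp5, b2ml, grna and foxp3b, and overlap them in slc16a10.

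The scavenger and hyaluronan receptor genes stab1, stab2 and lyve1a, known from vessel lining and macrophages, were higher in high frass in both stretches. The scavenger receptor gene stab1, on chromosome 21 (4154472 to 4243404), had 94.6, 133, 81.6 and 118 CPM in high frass, against 40.3, 81.2, 46.2 and 52.2 CPM in low frass and 52.0, 66.7, 52.1 and 48.7 CPM in the control. The high-frass pools lay above all 8 others, although replicate 3 exceeded low-frass replicate 2 only narrowly. Its log2 fold change was 0.96 with diet alone and 1.09 with gut stretch (SE 0.24, unadjusted p = 6.55e-04), and DESeq2 called it with gut stretch (adjusted p = 0.0392). Its relative stab2 had 9.76, 15.0, 13.2 and 17.2 CPM in high frass and 4.06, 8.81, 5.78 and 9.75 CPM in low frass, with 4.81 to 10.9 CPM in the control and a log2 fold change of 1.19 with gut stretch (unadjusted p = 0.00234). The frass diets were apart only narrowly in stab2, and the control reached into the high-frass range. The hyaluronan receptor gene lyve1a, known from lymphatic vessels, had 43.8, 42.4, 72.5 and 53.6 CPM in high frass and 21.1, 28.2, 21.2 and 31.2 CPM in low frass, with log2 fold changes of 1.06 and 1.11 in the fits with diet alone and with gut stretch. Its control pools had 24.1, 41.1, 25.9 and 44.4 CPM, and control replicate 4 lay inside the high-frass range. These 3 genes were 3 of the 4 members higher at an unadjusted p under 0.05 among 13 tested in the thrombocyte and endothelium list, in each fit, and 0 members were lower.

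General vessel markers of the same list overlapped between the diets. The endothelial cadherin gene cdh5 had 21, 13.8, 13.2 and 16.4 CPM in high frass and 14.3, 20.4, 13.6 and 16.9 CPM in low frass, and the receptor gene tie1 had 21.9, 19.4, 15.6 and 24.4 CPM in high frass and 19.9, 23.9, 13.6 and 19.5 CPM in low frass. The list median was 0.29 with diet alone and 0.25 with gut stretch, while the summed level was 321.6 to 408.0 CPM in high frass, 191.6 to 271.1 CPM in low frass and 200.8 to 286.7 CPM in the control. High frass overlapped neither other diet, and low frass overlapped the control. These sums include stab1, stab2 and lyve1a, so their separation is not independent of those genes, and sums without them were not tested. The coagulation gene vwf also made up much of the sums, and its pools overlapped. It had 155, 118, 89.9 and 47.8 CPM in high frass and 50.0, 65.8, 98.8 and 54.5 CPM in low frass. The gene oit3, which in mouse liver marks sinusoidal endothelium and is in no list, had 14.9, 21.5, 17.8 and 28.0 CPM in high frass and 9.60, 15.6, 7.71 and 16.4 CPM in low frass. Its diets overlapped, but within each stretch they did not, and its log2 fold change with gut stretch was 1.16 (SE 0.23, unadjusted p = 2.42e-04; DESeq2 adjusted p = 0.0136). The flow-responsive transcription factor gene klf2a belongs to the immediate early list described below and not to the thrombocyte and endothelium list. It had 46.2, 33.5, 78.1 and 43.5 CPM in high frass and 18.3, 28.6, 24 and 29.5 CPM in low frass. Its log2 fold change was 1.0 with diet alone (unadjusted p = 0.00248) and 0.94 with gut stretch.

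**Figure D3:**
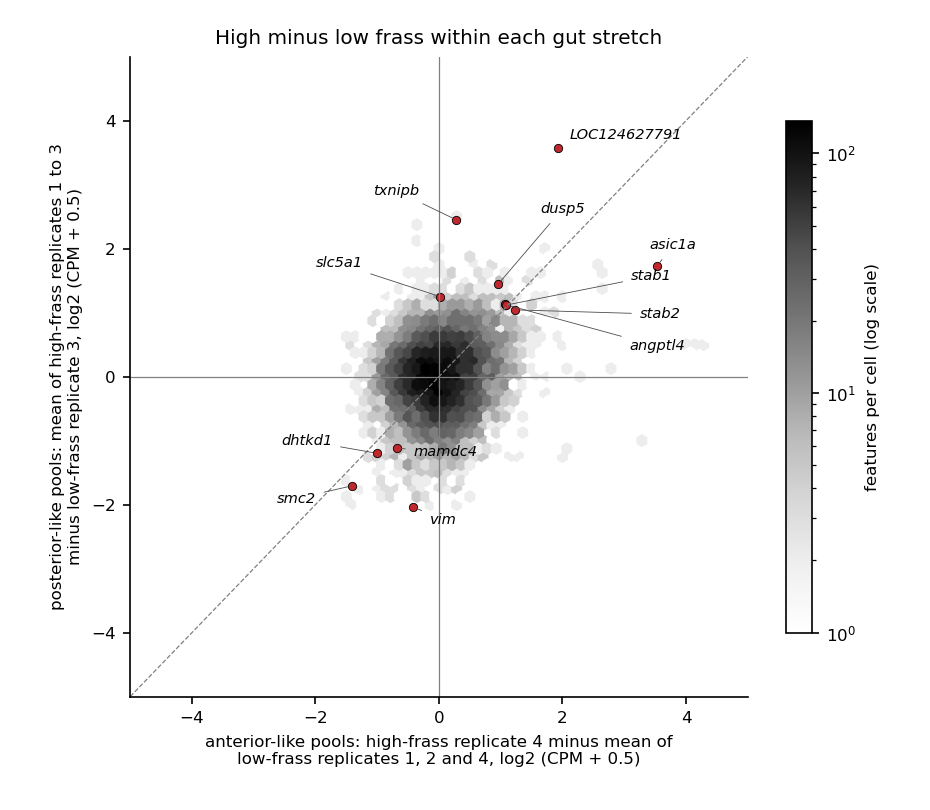
For every feature tested, the difference of high minus low frass in log2 (CPM + 0.5) within the anterior-like pools (x axis) and within the posterior-like pools (y axis), with the number of features shown as grey shading on a log scale and the dashed line marking equal differences. The named genes stab1, stab2 and angptl4 lie near the dashed line above 1 on both axes, mamdc4 and dhtkd1 lie below 0 on both, and txnipb, slc5a1 and vim differ mainly within the posterior-like pools.

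Within each stretch 1 diet is represented by 1 pool, high-frass replicate 4 among the anterior-like pools and low-frass replicate 3 among the posterior-like pools. Leaving out either pool therefore also removes the direct comparison of the diets within its stretch. A fall in the number of list members at an unadjusted p under 0.05 without that pool cannot be set down to its level alone. A test of whether the diet difference itself differed between the stretches gave 0 features with an adjusted p under 0.05 in edgeR, with a smallest adjusted p of 0.451 and 892 features at an unadjusted p under 0.05.

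The innate immunity list was higher in high frass in most members. Of 40 members tested, 37 had a log2 fold change above 0 with diet alone and 36 with gut stretch, 11 were higher and 0 lower at an unadjusted p under 0.05 with diet alone, and 6 were higher and 0 lower with gut stretch. The median was 0.84 with diet alone and 0.52 with gut stretch, against -0.03 and -0.004 over all features. Within every diet the posterior-like pools had the higher summed level of this list, though not of each member. The gene pglyrp6, for 1, was higher in the anterior-like pools, by a log2 difference of 1.78. The summed level was 4319, 2720, 3277 and 1477 CPM in high-frass replicates 1 to 4, against 967.5, 1216, 2138 and 1530 CPM in low-frass replicates 1 to 4 and 2761, 1069, 1885 and 2224 CPM in the control. The 3 posterior-like high-frass pools stood above every low-frass pool, and in 16 of the 40 members these 3 pools were above every low-frass pool, which was so for 929 of all features (8.93%). High-frass replicate 4, in contrast, lay between low-frass replicates 2 and 4. Leaving out single pools gave 4 to 24 higher members with diet alone, with 24 without low-frass replicate 3, and 3 to 9 with gut stretch.

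The progranulin gene grna, a growth factor precursor of macrophages and epithelium, was the only member of this list without overlap. Among all features 1.92% were above without overlap. The gene grna had 828, 657, 883 and 376 CPM in high frass, against 329, 292, 329 and 281 CPM in low frass and 368, 231, 540 and 426 CPM in the control. Its log2 fold change was 1.16 with diet alone (SE 0.32, unadjusted p = 0.00341) and 0.94 with gut stretch (unadjusted p = 0.0108). The C-type lectin gene cldc1 had 34.8, 38.2, 22.9 and 25.2 CPM in high frass, against 18.5, 22.9, 13.2 and 9.12 CPM in low frass and 11, 15.2, 11.6 and 11.4 CPM in the control, so all high-frass pools were above all control pools but touched the low-frass pools. Its log2 fold change was 0.92 with diet alone and 0.99 with gut stretch (unadjusted p = 0.00765). Lysozyme C (lysc), which cleaves bacterial cell walls, had 48.8, 16.0, 43.7 and 3.30 CPM in high frass, against 0.591, 0.620, 18.4 and 1.32 CPM in low frass and 4.56, 0.804, 1.45 and 1.56 CPM in the control. Its level was thus also high in the posterior-like low-frass pool, and the log2 fold change with gut stretch was 1.64 (SE 0.60, unadjusted p = 0.0169), or 2.89 without that pool.

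Cytokine genes were low in level and uneven. The gene il17a/f3, a cytokine that calls in neutrophils, had 13.2, 10.5, 15.1 and 4.29 CPM in high frass and 2.59, 0.895, 8.07 and 1.46 CPM in low frass, with log2 fold changes of 1.72 with diet alone and 1.08 with gut stretch (unadjusted p = 0.0453). Without low-frass replicate 3 the value with diet alone was 2.76. Its relative il17a/f1 had 20, 17.3, 10.4 and 11.2 CPM in high frass and 3.18, 2.75, 19.7 and 2.79 CPM in low frass. The tumor necrosis factor gene tnfb had 7.27, 3.42, 8.01 and 2.81 CPM in high frass and 2.07, 1.65, 2.44 and 3.13 CPM in low frass. Its log2 fold change was 1.21 with diet alone (unadjusted p = 0.0133), while its unadjusted p with gut stretch was 0.082. The gene tnfa had 3.44, 3.01, 3.37 and 1.65 CPM in high frass and 0.517, 0.551, 3.6 and 2.02 CPM in low frass. In all 4 genes low-frass replicate 3 or 4 reached into the high-frass range. The complement factor D gene cfd had 154, 127, 121 and 153 CPM in high frass and 51.9, 104, 130 and 65.5 CPM in low frass, a log2 fold change of 0.66 with diet alone (unadjusted p = 0.0362). The flagellin receptor gene tlr-5, which the study had named, had 1.28, 0.521, 0.919 and 1.16 CPM in high frass, against 0.591, 0.964, 0.609 and 0.766 CPM in low frass and 0.163, 0.447, 0 and 0.0707 CPM in the control. The frass diets overlapped for this receptor while every pool of both was above every control pool. These levels rest on few reads, 8 to 20 per frass pool and 0 to 5 per control pool. The other toll-like receptor genes of the study's RT-qPCR panel that were tested overlapped between the frass diets. They were tlr1 at 0.743 to 2.55 CPM in high frass and 0.296 to 1.52 CPM in low frass, tlr9 at 0.248 to 1.94 CPM in high frass and 0.406 to 1.18 CPM in low frass, and tlr21 at 3.38 to 11 CPM in high frass and 2.96 to 4.62 CPM in low frass. The hepcidin gene hamp had 0.153 to 2.04 CPM in high frass and 0.413 to 4.67 CPM in low frass, and the complement factor H gene LOC108267476 had 0.664 to 2.74 CPM in high frass and 0.209 to 1.72 CPM in low frass. Control pools of LOC108267476 had 0.132 to 0.625 CPM, below every high-frass pool but overlapping low frass, also on few reads.

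The antigen presentation genes b2ml and cd74b were higher in high frass in each stretch. The gene b2ml, on chromosome 5 (4259174 to 4261707), encodes beta-2-microglobulin, the light chain of MHC class I, and had 12200, 9040, 13800 and 8670 CPM in high frass, against 4710, 5880, 6200 and 5020 CPM in low frass and 7600, 4330, 8230 and 7300 CPM in the control. All high-frass pools were above the other 8, and 3 of the 4 control pools were above all low-frass pools. The log2 fold change was 1.0 with diet alone (SE 0.31, unadjusted p = 0.00794) and 0.84 with gut stretch (SE 0.25, unadjusted p = 0.00573). The class II invariant chain gene cd74b had 1010, 672, 1080 and 1730 CPM in high frass and 747, 655, 476 and 898 CPM in low frass. Its control pools had 528, 713, 1300 and 726 CPM and reached into the high-frass range. The frass diets overlapped for cd74b across stretches, and with gut stretch its log2 fold change was 1.04 (SE 0.26, unadjusted p = 0.00155).

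In the adaptive immunity list of 19 members, 4 were higher and 1 lower at an unadjusted p under 0.05 with diet alone, and 2 were higher and 1 lower with gut stretch, with medians of 0.40 and 0.29. Among all features 5.11% were higher with diet alone and 3.83% with gut stretch. The transcription factor gene of regulatory T cells, foxp3b, had 7.40, 7.65, 8.32 and 6.11 CPM in high frass, against 3.92, 3.03, 4.62 and 3.62 CPM in low frass and 8.41, 5.09, 3.16 and 6.86 CPM in the control. High and low frass did not overlap and the control pools overlapped both, with log2 fold changes of 0.96 with diet alone (unadjusted p = 0.00612) and 0.67 with gut stretch. The T cell kinase gene itk and the gut-homing receptor gene ccr9b were the other members above without overlap, as were 1.92% of all features. The gene itk had 45.9, 33.3, 40.2 and 28.0 CPM in high frass and 19, 15.5, 27.5 and 27.0 CPM in low frass, with an unadjusted p of 0.0546 with gut stretch. For ccr9b the ranges were 24.6 to 33.2 CPM and 18.1 to 23.7 CPM, with an unadjusted p of 0.156 with diet alone and 0.489 with gut stretch. The recombinase gene rag2 was below without overlap at 0.463 CPM or less in high frass and at 0.482 to 1.11 CPM in low frass, which amounts to few counts. The CD8 gene cd8a had 50.2, 19.8, 32.1 and 9.65 CPM in high frass and 10.9, 7.71, 21.1 and 12.7 CPM in low frass. Without high-frass replicate 1 the list had 1 higher member with diet alone, and without low-frass replicate 3 it had 1 with gut stretch.

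The immediate early list, of transcription factors and phosphatases that respond within minutes to growth factors or stress, was also higher, but mainly in 3 pools. Of 37 members tested, 17 were higher and 0 lower at an unadjusted p under 0.05 with diet alone, and 10 were higher and 0 lower with gut stretch, with medians of 0.82 and 0.54. The share of all features that were higher was 5.11% with diet alone and 3.83% with gut stretch. The summed level was 3970, 2320, 4997 and 2004 CPM in high frass and 1995, 1671, 1780 and 3035 CPM in low frass, with 1804 to 2143 CPM in the control, and in 30 of the 37 members (81.1%) high-frass replicate 4 lay within the low-frass range, as it did in 61.3% of all features. The pools of a group were also far apart, as in the Fos gene fosab with 42, 10.1, 362 and 10.2 CPM in high frass and 6.21, 6.27, 10.1 and 21.2 CPM in low frass. The zinc finger gene egr1 had 350, 235, 512 and 84.7 CPM in high frass and 26.8, 18.7, 98.3 and 136 CPM in low frass. With gut stretch, 17 members were higher without high-frass replicate 4, 15 without low-frass replicate 4 and 3 without low-frass replicate 3.

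The member of that list with the smallest p was dusp5, on chromosome 27 (2828129 to 2835110), a nuclear phosphatase that switches off ERK. It had 44.4, 31.7, 39.0 and 24.4 CPM in high frass, against 12.9, 9.57, 13.6 and 15.1 CPM in low frass and 22.8, 9.38, 11.7 and 9.19 CPM in the control. All 4 high-frass pools were above the other 8. The log2 fold change was 1.45 with diet alone (SE 0.31, unadjusted p = 6.08e-04) and 1.18 with gut stretch (SE 0.30, unadjusted p = 0.00178), and DESeq2 called it with diet alone (adjusted p = 0.0297). The AP-1 subunit gene fosl1a had 51.7, 3.30, 17.7 and 1.57 CPM in high frass and 0.443, 0.689, 2.64 and 1.18 CPM in low frass, with log2 fold changes of 3.88 with diet alone and 2.81 with gut stretch (SE 0.94, unadjusted p = 0.0107), the second of which was 1.83 without high-frass replicate 1.

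Genes of the glucose-responsive arrestins that limit glucose uptake followed the same pools. The gene txnipb had 49.1, 42.8, 99.6 and 10.9 CPM in high frass and 5.69, 11.1, 10.5 and 11.1 CPM in low frass, and txnipa had 2090, 1750, 2390 and 501 CPM in high frass and 456, 495, 662 and 748 CPM in low frass. High-frass replicate 4 was inside the low-frass range in both, while replicates 1 to 3 were above it. The log2 fold change of txnipb was 2.40 with diet alone (SE 0.59, unadjusted p = 0.00164) and 1.5 with gut stretch (0.88 without low-frass replicate 3), and that of txnipa was 1.51 with diet alone (unadjusted p = 0.00665). Within the stretches txnipb differed by 0.28 among the anterior-like and by 2.45 among the posterior-like pools, and the test of the difference between stretches gave an unadjusted p of 0.0236 in edgeR that did not pass adjustment. Of the 22 members of the carbohydrate list these were the 2 that were higher at an unadjusted p under 0.05, with pck2 the 1 that was lower, in each fit.

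**Figure D4:**
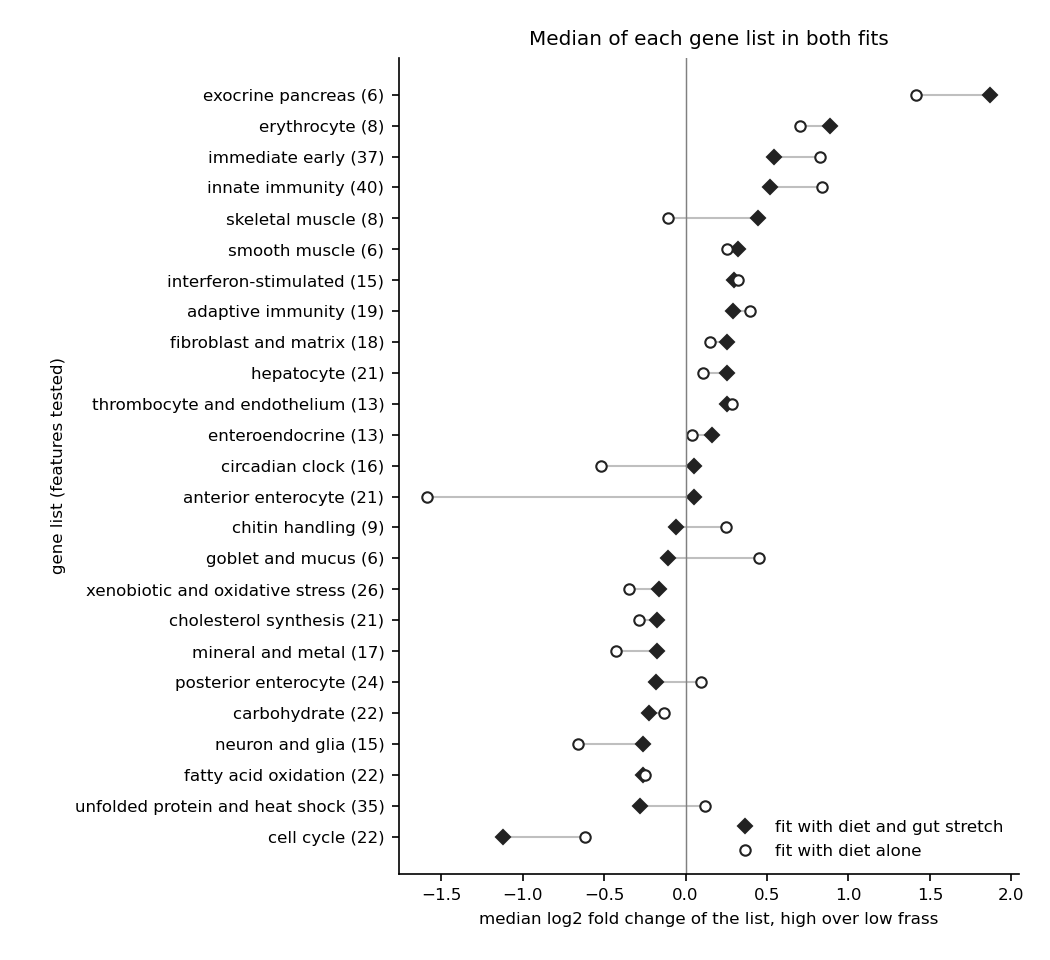
Median log2 fold change of high over low frass (x axis) for each of 25 gene lists (y axis, with the number of features tested) in the fit with diet and gut stretch (filled diamonds) and in the fit with diet alone (open circles). The innate immunity list has medians of 0.52 and 0.84 and the cell cycle list medians of -1.12 and -0.62, while the anterior enterocyte list lies at 0.05 with gut stretch and at -1.59 with diet alone.

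The cell cycle list had the most negative median with gut stretch, and the size of this median depended strongly on low-frass replicate 3. Of 22 members tested, 0 were higher or lower at an unadjusted p under 0.05 with diet alone, and 14 were lower and 0 higher with gut stretch, with medians of -0.62 and -1.12. The condensin subunit gene smc2, needed to compact mitotic chromosomes, had 32.0, 53.5, 28.1 and 8.58 CPM in high frass and 23.6, 28.3, 120 and 19.9 CPM in low frass, and ncapd2, of the same complex, had 31.7, 49.5, 29.7 and 10.6 CPM in high frass and 26.4, 25.7, 115 and 21.2 CPM in low frass. Low-frass replicate 3 was the highest of the 8 pools in 21 of the 22 members (95.5%), against 16.3% of all features, and the summed level was 712.5, 1184, 615.1 and 414.8 CPM in high frass, 525.2, 603.4, 2219 and 527.2 CPM in low frass and 632.7 to 1391 CPM in the control. Without low-frass replicate 3 the median was -0.40 and 0 members were lower with gut stretch, and the median with diet alone was 0.41 with 4 higher. Among the anterior-like pools alone, high-frass replicate 4 was still the lowest for smc2, ncapd2 and the cyclin gene ccna2, which had 28.0, 45.2, 32.6 and 15.6 CPM in high frass and 25.9, 36.8, 99.1 and 22.7 CPM in low frass.

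Chaperone genes showed the same dependence. Of 35 members of the unfolded protein and heat shock list, 6 were lower and 0 higher at an unadjusted p under 0.05 with gut stretch, with a median of -0.28, and 0 were lower without low-frass replicate 3. That pool was the highest of the 8 pools in 17 members (48.6%), against 16.3% of all features. The endoplasmic reticulum chaperone gene hsp90b1 had 593, 338, 291 and 71.8 CPM in high frass and 119, 68.2, 820 and 143 CPM in low frass, so that its posterior-like pools were higher than its anterior-like pools in each diet. The mitochondrial chaperonin gene hspd1 had 180, 204, 98.1 and 183 CPM in high frass and 481, 151, 456 and 246 CPM in low frass, a log2 fold change of -1.05 with gut stretch (SE 0.36, unadjusted p = 0.0118). The intermediate filament gene vim had 5.99, 7.12, 8.37 and 2.31 CPM in high frass and 2.36, 3.65, 30.7 and 3.97 CPM in low frass. The iron transporter gene slc11a2, which has 3 annotated transcripts, had 38.3, 32.8, 47.4 and 18.0 CPM in high frass, against 37.4, 32.4, 96.6 and 16.7 CPM in low frass and 123, 24.1, 16.7 and 101 CPM in the control. Its log2 fold change with gut stretch was -1.16 (SE 0.31, unadjusted p = 0.00281).

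**Figure D5:**
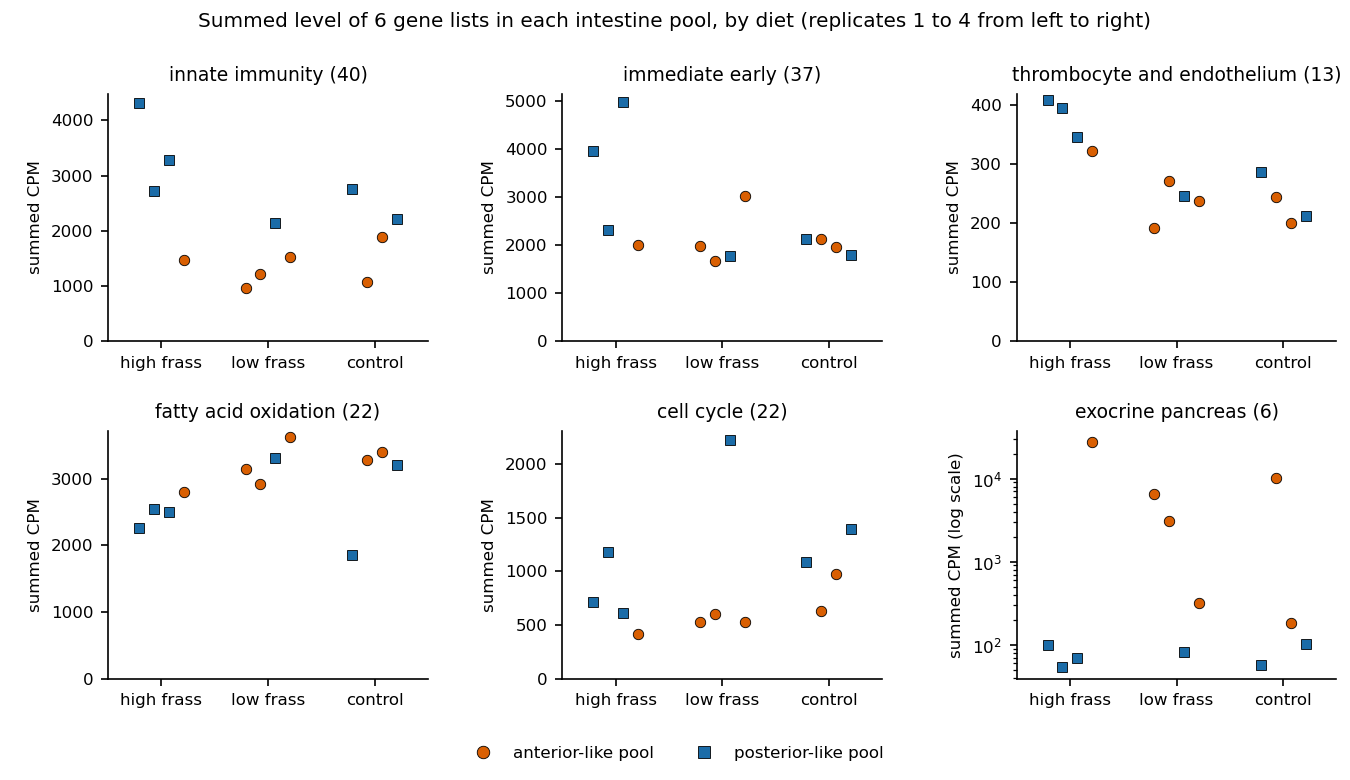
Summed CPM of 6 gene lists (y axes, linear from 0 except for the log axis of exocrine pancreas) in each intestine pool, with diets on the x axes and replicates 1 to 4 from left to right; circles are anterior-like and squares posterior-like pools, and numbers in brackets are features tested. The fatty acid oxidation and the thrombocyte and endothelium sums do not overlap between high and low frass, low-frass replicate 3 reaches 2219 CPM in the cell cycle list, and high-frass replicate 4 reaches 27560 CPM in the exocrine pancreas list.

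Transcripts of other tissues differed between single pools. The exocrine pancreas list summed to 100.1, 53.48, 69.95 and 27560 CPM in high frass and to 6456, 3101, 81.35 and 318.4 CPM in low frass, with 56.95 to 10190 CPM in the control. Its elastase gene ela2l had 9770 CPM in high-frass replicate 4 and 8.40 to 15.6 CPM in the other high-frass pools, against 6.49 to 2230 CPM in low frass. Sums of the skeletal muscle list were 137.0 to 175.6 CPM in high-frass replicates 1 to 3 and 1932 CPM in replicate 4, and 214.7 CPM in low-frass replicate 3 against 1043 to 1203 CPM in the other low-frass pools. The hepatocyte list summed to 43.7 to 635.2 CPM in high frass and 120.9 to 516.4 CPM in low frass. Of these 3 lists, with 6, 8 and 21 members tested, 0 members had an unadjusted p under 0.05 in either edgeR fit, and the part of such tissue in the differences above was not tested. Smooth muscle transcripts overlapped between the diets, with desmb, the desmin gene, at 2470, 1970, 2230 and 4290 CPM in high frass and 1150, 2490, 1330 and 2110 CPM in low frass, and with 0 of 6 members at an unadjusted p under 0.05 with diet alone and 1 higher with gut stretch.

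Red cell transcripts were higher in high frass for part of their list. Of 8 members tested, 4 were higher and 0 lower at an unadjusted p under 0.05 with diet alone, and 2 were higher with gut stretch, with medians of 0.70 and 0.89. Carbonic anhydrase of red cells (cahz) had 20.5, 30.8, 54.5 and 22.0 CPM in high frass and 18.7, 14.8, 11.6 and 10.4 CPM in low frass, without overlap, a log2 fold change of 1.09 with gut stretch (unadjusted p = 0.0130). The membrane skeleton gene ank1a, which has 3 annotated transcripts, had 2.87, 10.8, 18.8 and 10.3 CPM in high frass and 3.55, 3.30, 1.83 and 1.67 CPM in low frass, with log2 fold changes of 2.05 with diet alone and 1.97 with gut stretch (SE 0.60, unadjusted p = 0.00590). Control pools had 8.57, 4.38, 2.77 and 2.83 CPM of ank1a and 14.4 to 27.1 CPM of cahz, and reached into the high-frass range in both. The summed level of the list overlapped at 110.7 to 166.1 CPM in high frass and 91.88 to 156.4 CPM in low frass. Without low-frass replicate 3 the median with gut stretch was 0.30 with 1 member higher.

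Nerve transcripts were lower in high frass with diet alone. Of 15 members of the neuron and glia list, 6 were lower and 0 higher at an unadjusted p under 0.05 with diet alone, and 1 was lower with gut stretch, with medians of -0.66 and -0.26. Among all features 3.46% were lower with diet alone and 3.95% with gut stretch. The neuronal filament gene prph had 17.2, 11.8, 11.3 and 16.7 CPM in high frass and 17.2, 28.8, 17.6 and 36.9 CPM in low frass, a log2 fold change of -0.82 (SE 0.28, unadjusted p = 0.0122). The axon growth gene gap43 had 7.65, 6.2, 4.90 and 7.43 CPM in high frass and 7.68, 10.6, 9.34 and 15.5 CPM in low frass, just without overlap. Its log2 fold change with diet alone was -0.72 (unadjusted p = 0.0239) and was -0.48 without low-frass replicate 4, while its unadjusted p with gut stretch was 0.073. The count of lower members with diet alone was 0 without low-frass replicate 4, 1 without high-frass replicate 2, and 2 without high-frass replicate 3 or without low-frass replicate 2.

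Features known only by a locus identifier, to which no role was given, also separated the diets. LOC108261774 had 1700, 1000, 1740 and 753 CPM in high frass, against 490, 365, 433 and 467 CPM in low frass and 1040, 420, 615 and 826 CPM in the control, with log2 fold changes of 1.56 with diet alone (SE 0.35, unadjusted p = 8.60e-04) and 1.17 with gut stretch. LOC128629432 had 1.66, 1.1, 1.79 and 2.23 CPM in high frass, against 0.296, 0.138, 0.0507 and 0.209 CPM in low frass and 0 to 0.271 CPM in the control, with log2 fold changes of 3.28 with diet alone and 3.49 with gut stretch (SE 0.68, unadjusted p = 2.20e-04). All 4 high-frass pools of LOC128629432 were above the other 8, at a low level. LOC124627791 ran differently, at 16.7, 24.3, 1.58 and 3.71 CPM in high frass, 0.222, 1.31, 0.304 and 0.557 CPM in low frass and 4.35 to 22.8 CPM in the control, so that the low-frass pools stood below both other diets. The acid-sensing channel gene asic1a had a log2 fold change with gut stretch of 3.78 (SE 0.74, unadjusted p = 2.23e-04), with 1.85, 0.579, 3.52 and 14.1 CPM in high frass and 0.369, 1.31, 0.152 and 0.766 CPM in low frass. High-frass replicate 4 was its highest pool, and leaving out single pools gave 3.39 to 4.13.

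In the remaining lists few members stood out from the share of all features at an unadjusted p under 0.05. With gut stretch, 0 of 9 members were higher or lower in chitin handling, 0 of 6 in goblet and mucus, 0 of 13 in enteroendocrine and 0 of 18 in fibroblast and matrix. The cholesterol synthesis list had 1 lower of 21, xenobiotic and oxidative stress 1 lower of 26, mineral and metal 1 lower of 17, circadian clock 1 higher of 16 and posterior enterocyte 2 higher and 2 lower of 24. Frass holds insect cuticle, and the chitin list overlapped between the diets in its summed level at 2667 to 5849 CPM in high frass and 3399 to 4906 CPM in low frass. The water and glycerol channel gene aqp3a was higher without overlap in the posterior enterocyte list, at 4.53, 3.19, 4.49 and 4.70 CPM in high frass and 0.665, 2.82, 1.98 and 2.16 CPM in low frass, a log2 fold change of 1.02 with gut stretch (unadjusted p = 0.0454). The hindgut hormone gene insl5a had 194, 147, 185 and 31.2 CPM in high frass and 20.2, 38.4, 124 and 54.7 CPM in low frass.

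The interferon-stimulated list of 15 members had 1 higher and 1 lower at an unadjusted p under 0.05 in each fit. The interferon regulatory factor gene irf7 had 21.2, 21.5, 13.8 and 14.8 CPM in high frass and 9.97, 16.8, 7.76 and 20.2 CPM in low frass, a log2 fold change of 0.79 with gut stretch (unadjusted p = 0.0410) that was 1.26 without high-frass replicate 4. The RNA sensor gene rigi was lower without overlap, at 0.174 to 0.383 CPM in high frass and 0.488 to 0.757 CPM in low frass, but it has 2 annotated transcripts and few counts. In all 15 members the low-frass mean was below the control mean, as it was in 45.9% of all features, and the summed level was 455.3 to 938.6 CPM in high frass, 455.8 to 713.3 CPM in low frass and 676.9 to 770.9 CPM in the control. Among growth genes the study named myostatin, a muscle growth inhibitor, as raised in low frass over the control. Its main text does not say which copy of the gene was meant. The copy mstnb had 7.52, 12.1, 11.1 and 11.2 CPM in high frass and 10.4, 8.26, 16.5 and 15.4 CPM in low frass, with overlap. In the control mstnb had 10.5, 10.3, 14.6 and 12.5 CPM. The glucose-6-phosphatase gene g6pc1a.1, also named by the study, had 0, 1.39, 0.051 and 0.578 CPM in high frass and 0.591, 1.17, 0.660 and 0.906 CPM in low frass, with overlap and few counts. In the control g6pc1a.1 had 0, 0.357, 0.0659 and 0 CPM, below every low-frass pool. The copy of mstnb, mstna, did not pass the filter, with 0, 4, 3 and 2 reads in high frass and 5, 12, 12 and 21 reads in low frass. In the control mstna had 3, 3, 3 and 1 reads, fewer than in any low-frass pool. The mean of mstnb was 12.7 CPM in low frass and 12 CPM in the control, and its pools overlapped.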

How the data were processed

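RNA was taken from intestine in RNAlater, poly(A) libraries were sequenced as read pairs, and the authors trimmed the reads with Trimmomatic 0.38, aligned them with STAR 2.7.8a to Coco_2.0 and deposited raw counts made with HTSeq 0.9.0 per parent transcript of each exon, without strand and in union mode. The deposited counts were neither normalized nor filtered. The pools held 3 fish per the labels, while the study's methods give another number. Of 63022 features, 60685 were joined to a reference gene.

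The 12 intestine libraries were fitted with edgeR 4.0.16 (R 4.3.3, limma 3.58.1), with TMM scaling and the default count filter (minimum 10), by diet alone and with the stretch of gut as a term. Features tested held 99.9% of the counts, and 10 counts carry a counting error of 31.6%. The SE of a log2 fold change is its size over the square root of the quasi-likelihood F. Differences within a stretch use log2 (CPM + 0.5). The stretch came from average-linkage clustering of these same counts, so stretch and gene values are not independent. Replicate numbers do not pair the pools: r of same-numbered deviations ran from -0.362 to 0.519 between the frass diets. In its RNA-seq analysis the study set each frass diet against the control, so the comparison of high with low frass was added here.

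Named genes were the 8 higher and 8 lower with the smallest p with gut stretch and the same direction in both stretches. They also included the 5 higher and 5 lower with diet alone, up to 3 per list, and 4 leading genes per enterocyte list. Of the study's intestine and RT-qPCR genes, those found by symbol were added. Some further list members are given as CPM only and were chosen after their values were seen. The members and lists were chosen with earlier results of these data known. Alternatives were DESeq2 1.42.0, its size factors, no filter, a filter of 10 counts in each library, the 8 frass libraries alone, a replicate block, the pool letter, robust dispersion, counts summed per gene, other measures of stretch and each replicate left out. The fits were also run on simulated counts drawn from fitted means and dispersions. No result of that run is given or used here. Figures were drawn with matplotlib 3.10.9. The liver libraries and RT-qPCR values were not analysed here.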

Additional observations from a re-analysis of the deposited data

Results flagged for a closer look

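In groups of 4 pools, a pool was singled out where its gap to the nearest other pool as a share of the group's range exceeded Dixon's critical value, which chance gives in about 1 in 20 groups. High-frass replicate 4, the anterior-like pool of its diet, stood apart from the other high-frass pools in zgc:136472 (36.3 CPM, against 2.09 to 3.44), dipk2b (8.17 CPM, against 4.69 to 4.75) and LOC108260099 (8.75 CPM, against 15.9 to 16.9). It also stood apart in the summed levels of the exocrine pancreas list (27560 CPM), the skeletal muscle list (1932 CPM), the carbohydrate list (10490 CPM) and the xenobiotic and oxidative stress list (8427 CPM).

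Low-frass replicate 3, the posterior-like pool of its diet, stood apart from the other low-frass pools in slc5a1 (726 CPM, against 3450 to 4550) and ncapd2 (115 CPM, against 21.2 to 26.4), and in the summed levels of cell cycle (2219 CPM), chitin handling (4906 CPM), skeletal muscle (215 CPM) and hepatocyte (121 CPM) genes. The remaining pools that stood apart were low-frass replicate 1 in txnipb (5.69 CPM, against 10.5 to 11.1), low-frass replicate 2 in the antimicrobial peptide gene leap2 (1.79 CPM, against 0 to 0.148) and in the xenobiotic and oxidative stress sum (7085 CPM), and high-frass replicate 2 in aqp3a (3.19 CPM, against 4.49 to 4.70).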

How the results depend on the processing

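The counts of calls depended on the tool, the filter and 2 pools. DESeq2 called 13 features with diet alone and 7 with gut stretch, where edgeR called 0 in both. Without a filter edgeR called 0 with diet alone and 294 with gut stretch, 266 of which also passed the default filter, and the features at an unadjusted p under 0.05 numbered 1429 with diet alone and 1640 with gut stretch, where the default filter gave 891 and 809. Leaving out each replicate in turn gave 0 calls in both fits, with 434 to 2230 features at an unadjusted p under 0.05 with diet alone (434 without high-frass replicate 3, 2230 without high-frass replicate 4, 1735 without low-frass replicate 3, 519 and 549 without low- and high-frass replicate 1) and 298 to 1241 with gut stretch (298 without low-frass replicate 3, 530 without high-frass replicate 3, 1241 without low-frass replicate 2). Leaving out high-frass replicate 4 and low-frass replicate 3 together, chosen after seeing the data, makes diet and stretch coincide in the frass pools. It gave 547 calls (274 higher, 273 lower) and 3347 features at an unadjusted p under 0.05 with diet alone, and 0 calls and 335 such features with gut stretch, where desmb and fabp3 had the opposite direction to that with all pools. Over the fits that leave out pools, the log2 fold change of desmb with gut stretch ran from -0.16 to 0.91 and that of fabp3 from -0.95 to 0.07. With the replicate block, 0 features were called in either fit and 639 and 658 had an unadjusted p under 0.05. The numbers do not pair the pools. Many genes with a fold change in this text were chosen by their p in these same fits, and the alternatives reuse the same counts. A kept direction is therefore no independent support. Of 81 gene results (a fold change in 1 fit), 79 kept their direction under every alternative and the other 2 are those of desmb and fabp3. At an adjusted p under 0.05 with no limit on the fold change, DESeq2 gave 8 of those with diet alone and 8 with gut stretch, no filter gave 0 and 34, and the other alternatives gave 0, apart from the joint omission with 13 with diet alone. Of 50 list medians, 23 moved by more than 1 SD under some alternative. The cause of these changes was not tested.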
